A study of Homo sapiens with 24 samples.

Results

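KG-1a is an established human acute myeloid leukemia (AML) cell line. Its RNA was sequenced after 8 h with 1 μM 8-chloro-adenosine (8CA) and compared, across all genes, with that of untreated KG-1a cells at 8 h. The comparison rests on 4 libraries of the 24 in the series, replicates A and B of each group. The series also holds 8-amino-adenosine (8AA), a 24 h time point and a second AML line, MV4-11, in 12 groups of 2 libraries. The groups used here beside these 4 libraries are KG-1a with 1 μM 8AA at 8 h, KG-1a untreated and with 1 μM 8CA at 24 h, and MV4-11 untreated and with 1 μM 8CA at 8 h. Both lines are labelled wild type, were grown in the same serum-containing medium, and carry no engineered allele. Each is 1 cell line, and the labels do not say whether replicates A and B came from separate cultures, so p-values measure the spread between these libraries, which may be technical.

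Both drugs are adenosine analogs. At the same carbon of the adenine base, 8CA carries chlorine and 8AA an amino group. Cells phosphorylate such analogs to triphosphates, which can enter RNA and lower the pool of ATP. The integrated stress response is a pathway by which cells react to lack of amino acids, misfolded protein and other stress. Kinases phosphorylate the initiation factor eIF2, general translation slows, and the mRNA of the transcription factor ATF4 is translated better. ATF4 then binds, often with a C/EBP protein, to genes for amino acid uptake, serine and one-carbon synthesis, tRNA charging and stress signalling. The unfolded protein response of the endoplasmic reticulum (ER) shares one of these kinases and also raises ER chaperones such as HSPA5.

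Few genes were called in the fit of all 12 KG-1a libraries. The 6 with a change of at least 1 on the log2 scale were all increases in genes of the ATF4 list. Of 12711 genes tested, 112 (0.881%) were called, that is, had a Benjamini-Hochberg adjusted p below 0.05 in the quasi-likelihood test of edgeR. With 8CA, 89 genes (0.7%) were higher and 23 (0.181%) lower. Of the 112, 22 changed by 0.5 to 1 (log2), 21 of them upward, and 84 by less than 0.5. The median change of all genes tested was −0.0047 on the log2 scale. All 112 had 4 libraries that did not overlap between the groups, a condition that 47% of the genes tested also met.

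The count depended on which libraries shared the estimate of spread. The fit held all 12 KG-1a libraries, and the replicates of KG-1a with 8AA at 24 h differed much more (chi-square per degree of freedom 12.3) than those of the other KG-1a groups (1.43 to 3.59). The 3.59 was that of untreated KG-1a at 8 h, the reference of this comparison, and the 1.43 that of 8CA at 8 h. Without the 2 libraries of 8AA at 24 h, an alternative added after the values were seen, 740 genes (5.89% of 12561) were called. Of these, 396 were higher (3.15%) and 344 lower (2.74%), and all 112 were among them. In that fit 8 genes changed by at least 1 (log2). They included 2 outside the ATF4 list, TSC22D3, which was higher (1.16), and ASPRV1, which was lower (−1.23). Leaving out 1 of the 4 compared libraries instead gave 28 genes without 8CA replicate A, 33 without 8CA replicate B, 36 without untreated replicate A and 37 without untreated replicate B. The split between higher and lower therefore also depends on the libraries fitted.

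**Figure D1:**
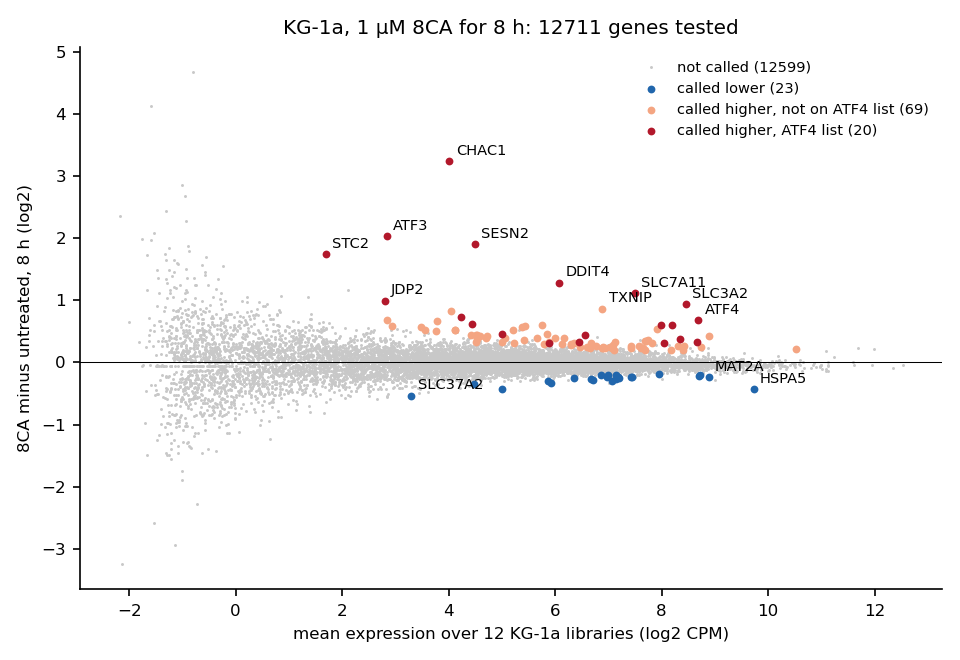
Change with 8CA at 8 h in KG-1a (vertical axis, log2) against mean expression over the 12 KG-1a libraries (horizontal axis, log2 CPM), 1 point per gene tested. The 20 called genes of the ATF4 list (dark red) include the 6 called genes with an increase of at least 1, CHAC1 highest at 3.24, while the 23 called lower (blue) lie between −0.53 and −0.19.

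Total counts of the 4 libraries lay between 18754237 and 21491415. Of the 7 KG-1a marker genes, CD34 had 360 to 391 CPM (counts scaled to library size) and CD7 30.4 to 32.7, and none of the 7 was called. The summed CPM of the 7 was 2466 to 2478 untreated and 2389 to 2413 with 8CA, and PTPRC was called lower in the fit without the 8AA 24 h libraries (log2 change −0.13, adjusted p = 0.0106, edgeR). The monocytic and MV4-11 markers FLT3, LYZ and CD33 were below 1 CPM in each of the 4 libraries, and MEIS1 was at 0. HOXA9, of the same list, was at 23.6 to 27.2 CPM and thus above its mean of 7.23 in untreated MV4-11 cells, and CD86, at 1.39 to 1.56, was also above its mean there of 0.418. Of 5 epithelial and fibroblast markers 4 were at 0 in every library, as were 4 of 5 erythroid ones. The T-cell receptor subunits CD3D, 238 to 265 CPM, and CD3E, 22.5 to 25.6 CPM, were present in every library, whereas the B-cell marker MS4A1 was at 0. The summed CPM of the 5 lymphoid markers was 284 to 291 untreated and 262 to 264 with 8CA. CD3D was not called (log2 change −0.15, adjusted p = 0.385, edgeR) but was lower in the fit without the 8AA 24 h libraries. The part of these shifts in other results was not tested. In bulk RNA, fewer cells of a type and less RNA per cell cannot be told apart.

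Promoter sequences are shown for those ATF4-list genes called higher that carry, before the gene start, the composite element to which ATF4 binds with C/EBP proteins, and for HSPA5, the ER chaperone that was called lower. The element was searched as TGATGNAA on both strands in windows from 250 bases before to 50 after each RefSeq gene start (build GRCh38.p14). It occurs in 3.62% of the 35116 windows, and in any window of 2.75% of the tested genes that could be matched (277 of 10088). Of the 20 ATF4-list genes called higher, 18 were matched and 7 held it: CHAC1, ATF3, JDP2, CARS, GARS, SLC3A2 and SLC7A1, the last 2 only after the start. Of all 30 tested genes of the list, called or not, 26 were matched and 10 held the element. That is 38.5%, against 38.9% of those called higher, so the share was much the same whether or not uncalled members were counted. Of the 59 matched genes called higher that are not on the list, 3 held it: TARS, ARID5B and ATF7IP. Of the 19 matched genes called lower, 0 did. A match is a description of the letters and not a measured binding site. Sequences read 5′ to 3′ along the gene, with the element in capitals.

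CHAC1, chr15:40953221-40953329, plus strand, element on the opposite strand, 209 to 202 bases before the start:
CHAC1: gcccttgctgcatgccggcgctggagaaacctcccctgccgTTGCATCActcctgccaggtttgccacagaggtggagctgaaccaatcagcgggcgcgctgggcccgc
ATF3, chr1:212565157-212565283, plus strand, element 191 to 184 bases before the start of 1 of its 2 windows:
ATF3: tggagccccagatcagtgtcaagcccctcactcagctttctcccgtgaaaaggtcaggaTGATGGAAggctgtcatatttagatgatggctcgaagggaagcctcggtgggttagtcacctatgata
JDP2, chr14:75427946-75428026, plus strand, element 16 to 9 bases before the start of 1 of its 3 windows:
JDP2: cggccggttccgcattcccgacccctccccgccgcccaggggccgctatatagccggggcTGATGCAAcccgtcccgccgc
GARS (RefSeq GARS1), chr7:30594785-30594882, plus strand, element on the opposite strand, 33 to 26 bases before the start of 1 of its 2 windows:
GARS: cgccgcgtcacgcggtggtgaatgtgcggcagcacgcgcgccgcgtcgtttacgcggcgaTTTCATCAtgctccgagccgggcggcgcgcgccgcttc
CARS (RefSeq CARS1), chr11:3057418-3057485, minus strand, element on the opposite strand, across the start of 1 of its 2 windows:
CARS: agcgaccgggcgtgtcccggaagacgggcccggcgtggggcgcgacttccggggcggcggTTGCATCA
HSPA5, chr9:125241339-125241469, minus strand, with the ER stress element (found on either strand in 0.0769% of all windows) 66 to 48 bases before the start:
HSPA5: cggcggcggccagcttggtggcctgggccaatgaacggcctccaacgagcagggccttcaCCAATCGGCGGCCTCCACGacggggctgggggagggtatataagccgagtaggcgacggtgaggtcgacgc

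The first question was which genes had moved after 8 h, early in the treatment. The ATF4 list holds 32 genes, of which 30 passed the filter on low counts. With 8CA, 20 of the 30 rose and 0 fell, against 0.7% of all genes called higher, and their median change was 0.44 on the log2 scale against −0.0047 for all genes tested. The list was written with earlier results of these data known. Of the 30, 29 had a positive change. Without the 8AA 24 h libraries 24 rose and 0 fell, against 3.15% and 2.74% of all genes. Leaving out 1 compared library gave 13 to 17 such genes, the fewest without untreated replicate B.

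Stress regulators and effectors of the list are given first. CHAC1, an enzyme that breaks down glutathione, was measured at 3.68 and 3.44 CPM (scaled by TMM) in the untreated libraries and at 33.1 and 34.3 CPM with 8CA. Both treated libraries lay far above both untreated ones, a change of 3.24 ± 0.10 (log2, SE; 9.46-fold; adjusted p = 1.18e-11, edgeR). ATF3, a stress-induced transcription factor, was at 3.24 and 3.20 CPM untreated and at 11.8 and 14.7 with 8CA (4.10-fold; log2 change 2.03 ± 0.15). SESN2, a sestrin that restrains mTORC1 when leucine is short, was at 9.82 and 9.90 CPM untreated and at 37.8 and 36.3 with 8CA (3.76-fold). DDIT4, another inhibitor of mTORC1 signalling, was at 34.2 and 33.6 CPM untreated and at 82.5 and 82.8 with 8CA (2.44-fold). In each of these 4 genes the spread within a group was small beside the difference between groups, and leaving out any 1 library kept each called.

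STC2, a secreted glycoprotein, was low in the untreated libraries, at 0.713 and 0.679 CPM, and was at 2.14 and 2.55 with 8CA (log2 change 1.74 ± 0.30). JDP2, a repressor of the AP-1 family, was at 4.23 and 3.59 CPM untreated and at 7.55 and 8.01 with 8CA. Neither gene's libraries overlapped between groups, but STC2 lost its call in 3 alternatives and JDP2 in 1. ATF4 itself was at 349 and 336 CPM untreated and at 557 and 542 with 8CA (1.60-fold; log2 change 0.68 ± 0.06). CEBPB, a C/EBP partner of ATF4, was at 18.4 and 15.3 CPM untreated and at 24.8 and 26.6 with 8CA. TRIB3, a pseudokinase that feeds back on ATF4, was at 25.5 and 22.7 CPM untreated and at 32.9 in both 8CA libraries. CEBPB and TRIB3 each lost their call in 3 alternatives. DDIT3, which encodes the pro-apoptotic factor CHOP, did not pass the threshold, with a log2 change of 0.46 (adjusted p = 0.244, edgeR). ATF5, a relative of ATF4, was the 1 list gene with a negative change (−0.045, log2) and was not called.

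**Figure D2:**
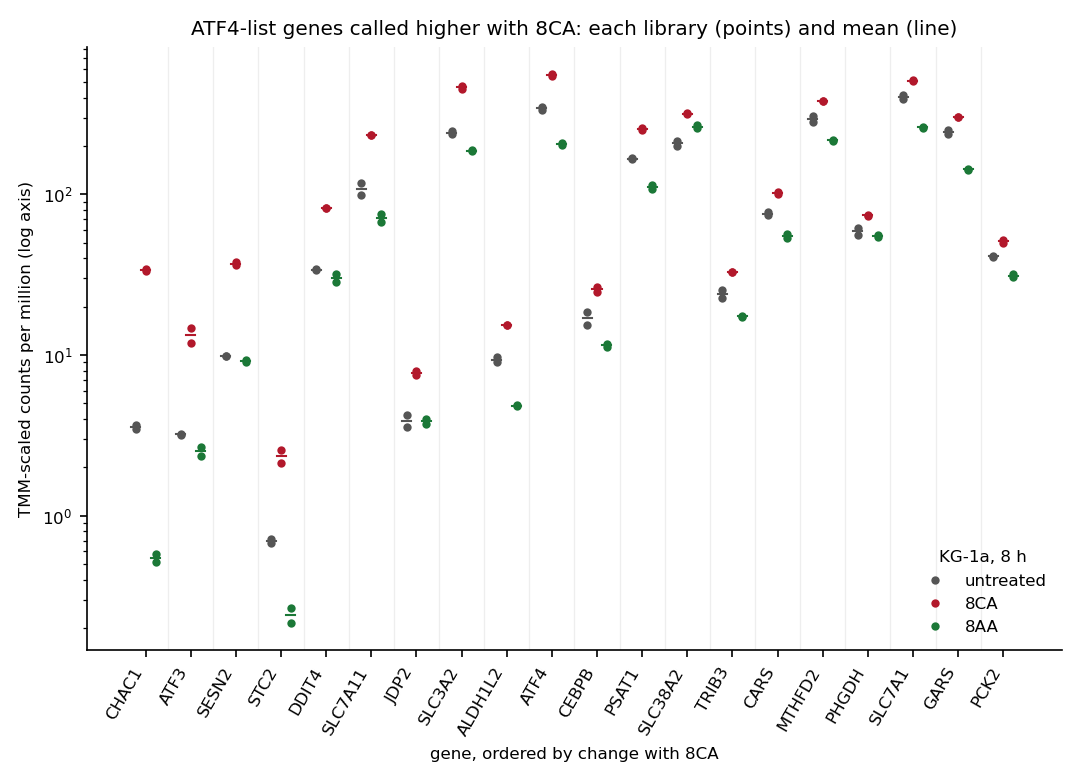
TMM-scaled CPM (log axis) of the 20 ATF4-list genes called higher with 8CA, in each KG-1a library at 8 h (points) with the group mean (short line), for untreated, 8CA and 8AA cells. Both 8CA libraries lie above both untreated libraries for every gene shown, and both 8AA libraries lie below the 8CA ones. The genes were picked as called higher, and all 112 called genes lacked overlap between 8CA and untreated, as did 47% of the genes tested.

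Amino acid transporters formed the second group. SLC7A11, the cystine carrier, was at 99.3 and 117 CPM untreated and at 234 in both 8CA libraries (2.16-fold; log2 change 1.11 ± 0.11). SLC3A2, the heavy chain that SLC7A11 and other carriers need, was at 246 and 236 CPM untreated and at 455 and 469 with 8CA (1.92-fold). SLC38A2, a carrier of small neutral amino acids, was at 207 ± 10.5 CPM untreated (mean and SD, n = 2) and at 319 and 314 CPM with 8CA. SLC7A1, the arginine and lysine carrier, was at 418 and 394 CPM untreated and at 511 and 504 with 8CA (log2 change 0.32). In a list of 20 tested amino acid transporters chosen after the values were seen, these 4 were the ones called, against 0.7% of all genes, and the median change was 0.15 (log2). Without the 8AA 24 h libraries 7 of the 20 rose and 0 fell, against 3.15% and 2.74% of all genes.

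Enzymes of serine synthesis and folate one-carbon metabolism formed the next group. PSAT1, the transaminase of serine synthesis, was at 165 and 169 CPM untreated and at 255 ± 6.41 with 8CA (mean and SD, n = 2) (1.53-fold; log2 change 0.61 ± 0.04). PHGDH, the first enzyme of that path, was at 61.9 and 56.1 CPM untreated and at 73.6 and 74.4 with 8CA. MTHFD2, a mitochondrial folate enzyme, was at 281 and 305 CPM untreated and at 381 in both 8CA libraries. These rises lay between 1.26- and 1.53-fold, and the groups did not overlap. ALDH1L2, another mitochondrial folate enzyme, was at 9.33 ± 0.464 CPM untreated (mean and SD, n = 2) and at 15.4 in both 8CA libraries. PCK2, the mitochondrial phosphoenolpyruvate carboxykinase, was at 41.5 and 40.7 CPM untreated and at 51.0 ± 1.44 with 8CA (mean and SD, n = 2). PHGDH and PCK2 each lost their call in all 4 fits that left out 1 compared library. PSPH (log2 change 0.27) and SHMT2 (0.12), also of serine metabolism, were not called. ASNS, asparagine synthetase, had a log2 change of 0.34 that missed the threshold (adjusted p = 0.0804, edgeR). Without the 8AA 24 h libraries, where 3.15% of all genes were higher, ASNS and PSPH were called higher and SHMT2 was not called.

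Of the cytosolic aminoacyl-tRNA synthetases, which charge tRNAs with amino acids, CARS and GARS rose as members of the ATF4 list. CARS was at 77.3 and 74.5 CPM untreated and at 101 and 104 with 8CA, and GARS, which lost its call in 3 alternatives, was at 251 and 238 CPM untreated and at 304 in both 8CA libraries. Of all 20 cytosolic synthetases, a list chosen after the values were seen, 3 rose (CARS, GARS and TARS) against 0.7% of all genes, 0 fell, and the median change was −0.011 (log2). Of 17 mitochondrial synthetases 0 were called, with a median of −0.053. In the fit without the 8AA 24 h libraries 7 of the 20 cytosolic ones rose and 0 fell, against 3.15% and 2.74% of all genes.

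Outside the ATF4 list, 69 genes rose, by a median of 0.33 (log2). TXNIP, an arrestin-like protein that limits glucose uptake, was at 56.4 and 58.0 CPM untreated and at 105 and 104 with 8CA (1.83-fold; log2 change 0.87 ± 0.05). Its relatives ARRDC3, at 13.9 and 17.2 CPM untreated and 21.2 ± 1.70 with 8CA (mean and SD, n = 2), and ARRDC4, at 11.8 and 13.7 CPM untreated and 17.8 and 18.9 with 8CA, also rose. These were 3 of 9 tested members of the list around the glucose-sensing factor MondoA, against 0.7% of all genes, and 0 fell. In the fit without the 8AA 24 h libraries the same 3 were higher and 2 others, MLX and HK2, lower, against 3.15% and 2.74% of all genes. ARRDC3 lost its call in 6 alternatives, ARRDC4 in 4 and TXNIP in 0. VEGFA, the vascular growth factor, was at 11.1 and 12.2 CPM untreated and at 19.9 and 21.8 with 8CA. VEGFA and DDIT4 were the 2 called, both higher, of 33 tested genes of glycolysis and hypoxia, against 0.7% of all genes. Without the 8AA 24 h libraries 3 of the 33 rose and 4 fell, against 3.15% and 2.74% of all genes. KDM3A joined the 2 that rose, while SLC2A1, HK2, PFKL and LDHA fell. RBM43, an RNA-binding protein (0.66 ± 0.11, log2 with SE), and USP44, a ubiquitin protease (0.68 ± 0.13), complete the 15 largest increases, and lost their calls in 3 and 4 alternatives.

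Of 16 tested BCL2-family genes, which govern apoptosis, 2 rose and 0 fell, against 0.7% and 0.181% of all genes. BCL2L1 was also called, and was lower, without the 8AA 24 h libraries, where 2.74% of all genes were lower. PMAIP1, which encodes the BH3-only protein NOXA, was at 35.9 and 41.8 CPM untreated and at 56.8 and 58.9 with 8CA (1.49-fold; log2 change 0.57 ± 0.07). BMF, another BH3-only protein, was at 48.5 and 43.3 CPM untreated and at 57.2 and 55.5 with 8CA, and lost its call in 5 alternatives. BCL2, the target of venetoclax, was at 292 and 305 CPM untreated and at 300.1 and 298 with 8CA, and its change of 0.0031 (log2) took either sign across the alternatives. PMAIP1 is also a p53 target. It was the only 1 of 25 tested genes of the p53 list that was called, against 0.881% of all genes. Without the 8AA 24 h libraries ZMAT3, of the same list, was also called, and was lower, against 2.74% of all genes. The median change of that list was 0.038 (log2).

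The heat shock list had 2 of 34 tested members called, both higher, against 0.7% of all genes, and a median of 0.090 (log2). HSPA1B, an inducible cytosolic HSP70, was at 12.7 and 14.4 CPM untreated and at 20.7 and 18.5 with 8CA. Its near-identical copy HSPA1A can share its reads, so its value is uncertain. HSPH1, a nucleotide exchange factor of HSP70, was at 409.5 and 421 CPM untreated and at 509 and 487 with 8CA. HSPA1B lost its call in 4 alternatives and HSPH1 in 2. Without the 8AA 24 h libraries, 10 of the 34 rose and 1 fell, against 3.15% and 2.74% of all genes.

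HSPA5 (BiP) moved the other way. The main chaperone of the ER, whose promoter is shown above, was at 1410.1 and 1349 CPM untreated and at 1037 and 1017 with 8CA. Both 8CA libraries were lower, at 0.744 of the untreated level (log2 change −0.43 ± 0.06; adjusted p = 0.000872, edgeR). Of the 22 tested genes of ER folding and the unfolded protein response it was the only one called, against 0.881% of all genes. A negative change was seen in 17 of the 22 (median −0.058). Without the 8AA 24 h libraries, 6 of the 22 fell (HSPA5, HSP90B1, PDIA3, PDIA4, MANF and HYOU1) and 0 rose, against 2.74% and 3.15% of all genes.

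The 23 genes called lower changed by little, with a median of −0.25 (log2) and none beyond −0.53. Without the 8AA 24 h libraries some genes called lower fell further, such as ASPRV1 (−1.23), TSKU (−0.87) and GREB1 (−0.82). MAT2A, the enzyme that makes S-adenosylmethionine, was at 547 and 553 CPM untreated and at 458 and 474 with 8CA, 0.848 of the untreated level (log2 change −0.24 ± 0.04; adjusted p = 0.00863, edgeR). The study chose the pathway of cysteine and methionine metabolism on RNA-seq of both lines after 24 h with 8CA or 8AA. That choice used the same series, so the pathway is no independent evidence. Of its 34 tested genes, MAT2A was the only one called lower, against 0.181% of all genes. PSAT1 and PHGDH were higher, against 0.7%, and the median was −0.022. Without the 8AA 24 h libraries 4 of the 34 were lower, against 2.74% of all genes, namely MAT2A, LDHA, SMS and DNMT3B. PSAT1 and PHGDH were again the 2 higher, against 3.15%. Of the other genes at the centre of the study, METTL16, METTL3, NUDT21, CPSF6, CPSF7, BCL2, CD34 and CD38 were not called. METTL14, a subunit of the m6A writer, missed the threshold with a log2 change of 0.29 (adjusted p = 0.0571, edgeR) and passed it in 7 of 15 alternatives. MAT2A lost its call in the 4 fits that left out 1 compared library.

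SLC37A2, a sugar phosphate transporter, had the largest decrease of the 23, from 13.4 and 11.3 CPM to 9.12 and 7.80. It lost its call in 5 alternatives. The long intergenic RNA LINC01963 was at 38.2 and 36.2 CPM untreated and at 28.0 and 27.2 with 8CA. It was the only one called of 110 tested LINC genes, against 0.881% of all genes. MLKL, the executor of necroptosis, was at 28.2 and 27.2 CPM untreated and at 20.9 and 22.5 with 8CA. The homeobox gene HOXA7 was at 72.9 and 69.9 CPM untreated and at 57.6 and 55.5 with 8CA. In each of these 4 genes the groups did not overlap, as in 47% of all genes tested. MLKL lost its call in 6 alternatives, HOXA7 in 4 and LINC01963 in 3. The other named decreases lay between −0.30 and −0.19 (log2). They were the antiviral proteins APOBEC3G and ZC3HAV1, the ceramide kinase CERK, the phosphatase regulator PPP1R10, the splicing factors PRPF38B, DDX46 and SRRM1, the serum response factor SRF, VANGL1, STOM and the mitochondrial nucleotide kinase CMPK2. CMPK2 was the only called gene of 39 on the interferon list, against 0.881% of all genes. Without the 8AA 24 h libraries 3 of the 39 rose (IFIT2, IFIT3 and XAF1), against 3.15% of all genes. In that fit 2 fell (IFITM2 and CMPK2), against 2.74%.

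Several lists had no called gene by edgeR at 8 h, where 0.881% of all genes were called, so that 0 is near the background for lists of their size. These were 42 DNA replication genes (median −0.011, log2), 36 mitosis genes (−0.038), 35 genes of MYC and ribosome biogenesis (−0.063), 25 polyadenylation factors (0.019), 29 elongation factors and regulators (0.0069) and 18 genes of the m6A pathway (0.062). The others were 25 genes of adenosine uptake and conversion (0.0039), 13 of purine synthesis (−0.025), 34 of cholesterol and lipid synthesis (−0.054) and 17 of NF-κB signalling (−0.015). No cytosolic ribosomal protein gene of 84 was called either (−0.045), though 75 of the 84 had a negative change, against 6556 of all 12711 genes tested. Without the 8AA 24 h libraries 9 of the 35 MYC and ribosome biogenesis genes fell and 1 rose, 5 of the 34 lipid genes fell and 2 rose, and DNA replication and purine synthesis had 0, against 3.15% of all genes higher and 2.74% lower. Against the same shares, 3 of the 25 adenosine genes fell (AMPD2, PNP and AK1) and 1 rose. In mitosis 3 of 36 fell and in ribosomal proteins 4 of 84, and 0 rose. The m6A and polyadenylation lists each had 2 higher and 0 lower, and the elongation and NF-κB lists each 1 higher and 1 lower. Across all genes tested, 1654 had an unadjusted p below 0.05.

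Zinc finger genes of the ZNF series were called higher in 4 of 462 tested members (ZNF184, ZNF510, ZNF829 and ZNF844, log2 changes 0.32 to 0.43) and lower in 0. The share is near the background of 0.7%, and the median was 0.073 (log2). Without the 8AA 24 h libraries 24 of 459 were higher and 0 lower, against 3.15% and 2.74% of all genes. SRSF5, a splicing factor, rose from 242 and 250.1 CPM to 282 and 285. SRRM1 was the only other called gene of 36 tested splicing regulators, against 0.881% of all genes. Without the 8AA 24 h libraries 6 of the 36 rose and 3 fell, against 3.15% and 2.74% of all genes. A list of 19 factors of nonsense-mediated decay, chosen after the values were seen, held 3 that rose (UPF2, UPF3B and SMG5), against 0.7% of all genes, and 0 that fell. In the fit without the 8AA 24 h libraries 6 of the 19 rose and 1, EIF4A3, fell, against 3.15% and 2.74% of all genes. UPF2 was at 114 and 119.9 CPM untreated and at 147 and 148 with 8CA, and SMG5 at 195 and 180.0 CPM untreated and at 236 and 241 with 8CA.

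The called genes had a higher median expression and a longer median exon length than all genes tested. Median expression over the KG-1a libraries was 6.35 log2 CPM for those called higher, 7.08 for those called lower and 5.05 for all genes tested. Median exon length was 4.10 kb, 4.37 kb and 3.47 kb in the same order. These are descriptions with no test.

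The second comparison asked how the early change relates to that at 24 h, measured against its own untreated libraries. Of the 112 genes called at 8 h, 100 were called in the same direction at 24 h, 3 in the opposite direction and 9 not, while 23.4% of all genes tested were called higher and 24% lower at 24 h. The increases of the ATF4-list genes were larger by then. The 20 ATF4-list genes had a median change of 0.65 (log2) at 8 h and 1.74 at 24 h, and for the 23 decreased genes the medians were −0.25 and −0.26. Of the 30 tested list genes, 29 were higher and 0 lower at 24 h, and the change at 24 h exceeded that at 8 h in 28, against 11.2% of all genes, by the test of the difference in the same fit. Of the 69 increased genes outside the list, that test placed the later change above the earlier in 32 and below it in 6. Among all 12711 genes tested it did so in 1423 and 1613.

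PSAT1 had the smallest adjusted p of the 112 genes in that test. PSAT1 reached 746 and 760.0 CPM at 24 h against 180.4 and 178 untreated, and its change at 24 h exceeded that at 8 h by 1.46 ± 0.06 (log2; adjusted p = 9.49e-10, edgeR). ALDH1L2 differed by 1.84 ± 0.13, PCK2 by 1.46 ± 0.09 and the kinesin KIF21B by 1.12 ± 0.07. ATF3 is the counter-example, at 18.6 and 16.8 CPM with 8CA at 24 h against 4.28 and 3.48 untreated. Its changes at the later and the earlier time differed by 0.15, with a 95% interval from −0.31 to 0.61 (adjusted p = 0.664, edgeR). CHAC1 was at 56.8 and 53.4 CPM at 24 h, against 3.63 and 3.64 untreated, a log2 change of 3.92.

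The 3 genes that turned were HSPH1, HSPA1B and MLLT11. HSPH1 was 1.20-fold higher at 8 h and then lower at 24 h, at 187 and 189 CPM against 315 and 311 untreated, so that the difference of changes was −0.996 ± 0.061 (adjusted p = 4.85e-08, edgeR). HSPA1B went from an increase at 8 h to 7.47 and 6.80 CPM at 24 h against 10.4 and 8.65 untreated, a difference of −0.95 ± 0.16. MLLT11, named after its values were seen, had a log2 change of 0.27 at 8 h and −0.61 at 24 h. In all 3, 8CA libraries were above untreated ones at 8 h and below them at 24 h. HSPA5 kept its direction and fell further, to 285 and 277 CPM against 839 and 860.5 untreated at 24 h, a difference of −1.17 ± 0.08. MAT2A was at 464 and 462 CPM with 8CA at 24 h against 545 and 541 untreated, and its change differed from that at 8 h by 0.0077, with a 95% interval from −0.11 to 0.13.

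**Figure D3:**
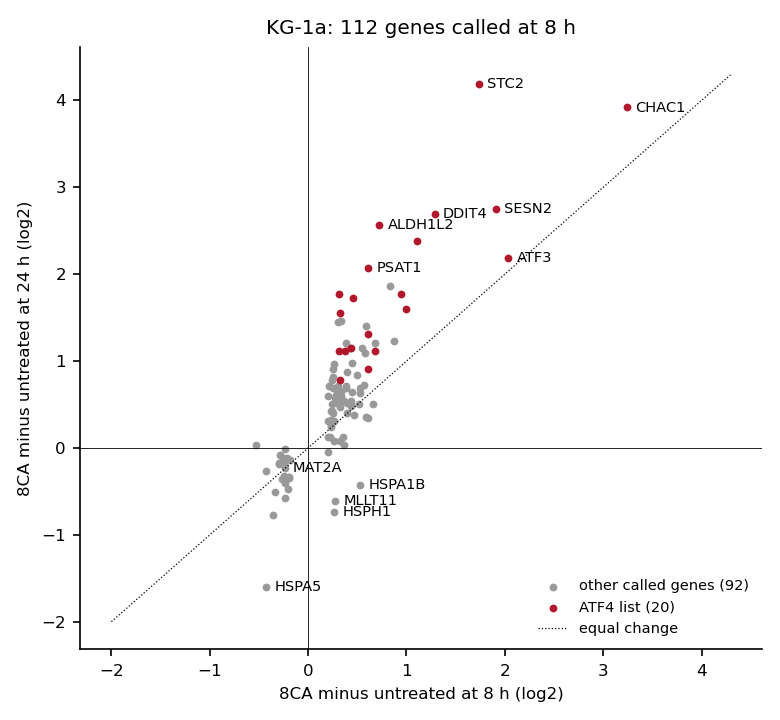
Change with 8CA at 24 h (vertical axis, log2) against change at 8 h (horizontal axis, log2) for the 112 genes called at 8 h in KG-1a. The 20 ATF4-list genes (red) lie above the dotted line of equal change, and HSPA1B, MLLT11 and HSPH1 lie below zero at 24 h.

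The third comparison set 8CA against 8AA, its analog with an amino group in place of the chlorine, at the same dose and time in the same line. This is 1 pair of compounds. Both are compared with the same untreated libraries, so the test of the difference is the direct comparison of 8CA with 8AA. All 30 tested genes of the ATF4 list were higher with 8CA than with 8AA, against 15.8% of all genes. Relative to untreated cells, the list had 20 genes higher and 0 lower with 8CA, and 1 higher and 22 lower with 8AA, where 16.7% and 18% of all genes were higher and lower. The median change was 0.44 (log2) with 8CA and −0.43 with 8AA.

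CHAC1 was at 0.582 and 0.517 CPM with 8AA, below the untreated libraries, and the difference between the drugs was 5.92 ± 0.13 (log2; adjusted p = 1.42e-13, edgeR). SESN2 was at 9.31 and 9.05 CPM with 8AA, and the drugs differed by 2.01 ± 0.08. ATF4 was at 208 and 201 CPM with 8AA, a difference of 1.42 ± 0.06. PSAT1 (1.20 ± 0.04) and SLC3A2 (1.30 ± 0.05) differed likewise. In these 5 genes the libraries ran in the order 8CA, untreated, 8AA from high to low, although SESN2 with 8AA was not called against untreated cells (adjusted p = 0.461, edgeR). SLC38A2 was the 1 gene of the list that rose with both drugs, to 258 and 268 CPM with 8AA.

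Other genes ran in other orders. TXNIP was higher with 8AA, at 131 and 127 CPM, than with 8CA (difference −0.31 ± 0.05, log2; adjusted p = 0.000158, edgeR). SRSF5 was at 391 and 388 CPM with 8AA, a difference of −0.46 ± 0.04. MAT2A was lower with 8AA, at 421 and 406 CPM, than with 8CA, by 0.17 ± 0.04 on the log2 scale (adjusted p = 0.00436, edgeR). For HSPA5, at 1128 and 1073 CPM with 8AA, the difference was −0.10 with a 95% interval from −0.22 to 0.020, which did not pass the threshold (adjusted p = 0.198, edgeR).

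**Figure D4:**
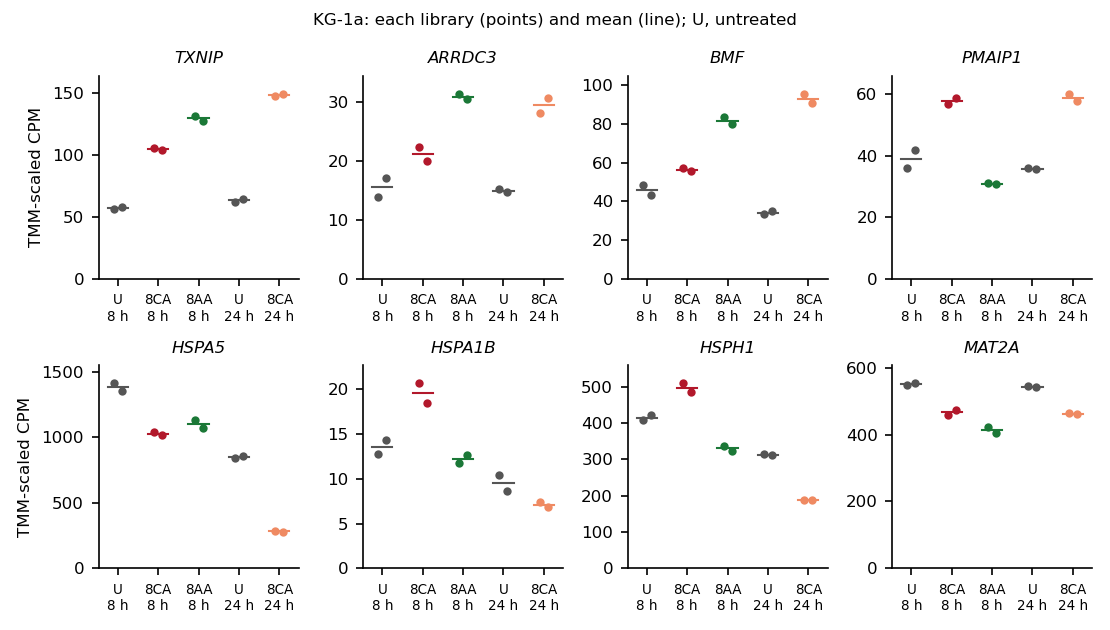
TMM-scaled CPM of 8 called genes outside the ATF4 list in each KG-1a library (points) with the group mean (line), for untreated, 8CA and 8AA cells at 8 h and untreated and 8CA cells at 24 h. TXNIP, ARRDC3 and BMF are higher with 8AA than with 8CA at 8 h, HSPA5 falls furthest at 24 h, and HSPA1B and HSPH1 are above untreated at 8 h and below at 24 h.

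The last comparison asked whether MV4-11 cells changed in the same way after 8 h of 8CA, in a fit of all 24 libraries that tested 14055 genes. Of the 112 genes, 41 were called in the same direction in MV4-11 and 9 in the opposite one, while 4.84% of all genes were called higher and 4.81% lower there, 9.65% in all. Of the 30 ATF4-list genes, 0 were higher and 5 lower in MV4-11, with a median of −0.072 (log2). The change in MV4-11 was below that in KG-1a in 20 of the 30 by the test of the line difference, against 0.726% of all genes in that direction and 1.15% in either. CHAC1 was at 2.89 and 2.76 CPM in untreated MV4-11 and at 2.25 and 3.39 with 8CA, so those groups overlapped, and the line difference was −3.26 ± 0.22 (log2; adjusted p = 2.97e-09, edgeR). PSAT1 fell in MV4-11, from 192 and 189 CPM to 151 and 150.4, a line difference of −0.95 ± 0.06. SESN2 (−1.64 ± 0.15), SLC3A2 (−0.95 ± 0.08) and VEGFA (−1.17 ± 0.12) differed in the same direction.

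Outside the ATF4 list, some changes were shared by the lines and a few were larger in MV4-11. Of the 69 increased genes, 30 were higher and 6 lower in MV4-11, against 4.84% and 4.81% of all genes. The 6 include HSPA1B and HSPH1. By the line difference, the change in MV4-11 was below that in KG-1a in 16 of the 69, against 0.726% of all genes. It was above only in ARRDC3 and BMF. Of the 23 decreased genes, it was above in 5 and below only in HSPA5. These genes were picked by their KG-1a change, which enters the test. TXNIP rose in MV4-11 from 173 and 163 CPM to 231 and 252, by less than in KG-1a (line difference −0.34 ± 0.07). ARRDC3 rose by more in MV4-11 (0.93 ± 0.20; adjusted p = 0.0141, edgeR), and so did BMF (0.41 ± 0.10; adjusted p = 0.0332). HSPA5 fell by more in MV4-11, from 1102 and 1114 CPM to 634 and 662 (−0.35 ± 0.07). MAT2A fell in MV4-11 from 708 and 718 CPM to 546 and 574, and its line difference of −0.11 had a 95% interval from −0.22 to 0.0054 (adjusted p = 0.483, edgeR).

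**Figure D5:**
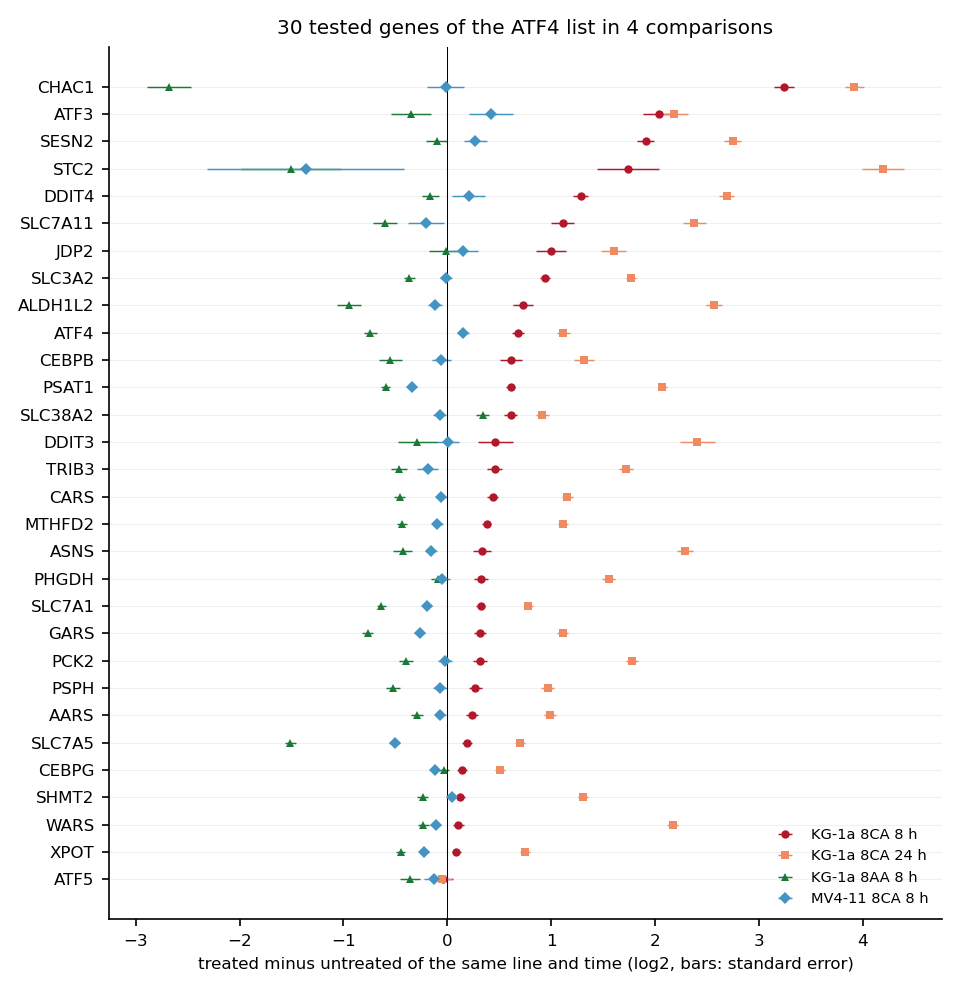
Change against the untreated cells of the same line and time (horizontal axis, log2; bars, standard error) for the 30 tested genes of the ATF4 list, with KG-1a 8CA at 8 h (dark red), KG-1a 8CA at 24 h (orange), KG-1a 8AA at 8 h (green) and MV4-11 8CA at 8 h (blue). For CHAC1 the 4 values are 3.24, 3.92, −2.68 and −0.017, and the 8CA values of KG-1a lie to the right of the 8AA and MV4-11 values for all 30 genes at 8 h.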

How the data were processed

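RNA was extracted with a column kit, per the labels, and sequenced from 24 libraries. The authors deposited raw counts of reads per gene for 23354 genes, without normalization and with no mitochondrial gene. The submitters' processing notes name Trimmomatic, STAR 2.6.0, HTSeq 0.11.1 and edgeR, and the builds hg19 and hg38 with no role for either. Of 21885 genes matched by symbol and chromosome, 52 had the start given by RefSeq for GRCh38.p14, so no coordinate of the table was used. The sources used here do not give the strand setting, and genes that overlap another on either strand may share reads. The exon length column was used only for the lengths quoted.

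Genes were filtered with filterByExpr (minimum count 10), scaled by TMM, and tested with the quasi-likelihood test of edgeR 4.0.16 in R 4.3.3, with 1 coefficient for each of the 6 KG-1a groups over 12 libraries. The line difference came from a fit of all 24. A gene was called at a Benjamini-Hochberg adjusted p below 0.05. Standard errors are the absolute change divided by the square root of F. Replicates were compared by chi-square over genes that reached 20 counts in both libraries together. The A minus B differences of the compared groups had a correlation of −0.013. Between any 2 KG-1a groups it ran from −0.085 to 0.16. The steps were tested on data simulated with the same spread in every group. Such data do not show how the fit behaves when the replicates of a group differ more than the others.

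The members, lists and tests were chosen with earlier results of these data known. The genes named are the 15 largest changes in each direction among called genes whose mean log2 CPM was 1 or more, called genes of the lists, 10 genes central to the study, and the 5 smallest adjusted p in each difference test. Chosen after their values were seen were TARS, UPF2, UPF3B, SMG5, ARID5B, ATF7IP, MLLT11 and the genes given as uncalled list members or with the added fit. RefSeq windows (250 bases before to 50 after the start) were matched by symbol or synonym on the same chromosome.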

Additional observations from a re-analysis of the deposited data

Results flagged for a closer look

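These results stand out because the change with 8CA differed between drugs, times or lines by a test of the difference itself, with edgeR and adjustment over all genes tested. All values are differences on the log2 scale.

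At 8 h in KG-1a, 8CA minus 8AA was ATF4 1.42, CHAC1 5.92, MAT2A 0.17, PSAT1 1.20, SESN2 2.01, SLC3A2 1.30, SRSF5 −0.46 and TXNIP −0.31. In KG-1a, subtracting the early from the late change gave ALDH1L2 1.84, HSPA1B −0.95, HSPA5 −1.17, HSPH1 −0.996, KIF21B 1.12, PCK2 1.46 and PSAT1 1.46. Subtracting the KG-1a from the MV4-11 change at 8 h gave ARRDC3 0.93, BMF 0.41, CHAC1 −3.26, HSPA5 −0.35, PSAT1 −0.95, SESN2 −1.64, SLC3A2 −0.95, TXNIP −0.34 and VEGFA −1.17. These genes were picked from those called at 8 h in KG-1a, whose libraries enter each test, so the differences are not independent of that choice. Explanations were not tested.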

How the results depend on the processing

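The count of 112 genes rose to 272 without a filter on low counts, 205 with a replicate block, 354 with only the 4 compared libraries, 503 with the 6 KG-1a libraries at 8 h, 184 with all 24 libraries, 740 without the 8AA 24 h libraries and 1654 at an unadjusted p below 0.05, and was 6 with a log2 change of at least 1. Leaving out 1 library gave 28 to 37. It was 113 under RLE or upper quartile scaling, 137 by library size alone, 117 with a stricter filter and 132 with DESeq2. The ATF4 list had 6 genes called with a log2 change of at least 1, and 13 to 17 when 1 library was left out. The line difference gave 246 genes without the filter, 289 without the 8AA 24 h libraries, and 82 to 117 when 1 library was left out, against 162. Leaving out 1 library gave 2015 to 2413 for the time difference, against 3036, and 2237 to 2386 for the drug difference, against 3868. Each of those fits left 1 library in a compared group, and the reason for the lower counts was not tested. Upper quartile scaling turned the time difference from 1423 genes above and 1613 below to 1764 and 1272.

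Some uncalled changes reversed sign. BCL2 was −0.0013 under RLE scaling and with DESeq2, −0.0021 under upper quartile scaling, and −0.021 to 0.034 when 1 library was left out. Leaving out 1 library also gave −0.024 to 0.15 for NUDT21, −0.011 to 0.070 for CPSF7, −0.013 to 0.083 for CD34, −0.0046 to 0.31 for the time difference of ATF3 and −0.020 to 0.030 for that of MAT2A. Of 53 named genes called, 17 were called under every alternative run, and 36 were lost under at least 1. The A minus B differences of the compared groups had a correlation of −0.013, so the letters gave no sign of pairing there. The replicate block gives libraries of a fit that share a letter a common term. With 2 libraries a group, 18754237 counts or more per library limit small changes in low genes.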
